A study of Mus musculus with 10 samples.

Results

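The genes described here encode the contractile and actin-binding proteins that mark smooth muscle, together with serum response factor, the transcription factor known to drive many of them. They were read in cultured mouse neurons treated with SP600125, a compound that blocks JNK (the JUN N-terminal kinases), or with solvent only. The set held 10 genes of 19938 tested, chosen by name: the smooth muscle actins Acta2 and Actg2, the actin-binding proteins Tagln, Cnn1 and Cnn2, the myosin light chain Myl9, the tropomyosins Tpm1 and Tpm2, the adhesion protein Vcl and the factor Srf. Each had 1 probe set that carried its symbol alone, so no choice between probe sets was needed, and all 10 genes were tested without a filter on signal.

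The SP600125 cells received 3 doses of 25 µM at intervals of 2 hours, and the DMSO cells received solvent on the same schedule. Both groups were labelled as terminally differentiated neurons of strain 129Sv-C57Bl/6, and neither carried a further genetic change in its labels. The labels call the 5 arrays of each group, a to e, biological replicates, with replicates a and b in drug batch 1 and c, d and e in drug batch 2, where a batch is a batch of SP600125. They do not say whether these came from separate cultures, so every p-value below reflects the spread between these arrays. Both b arrays stood apart from their groups in 12 neuron markers, whose summed linear signal was 8387 on SP600125 replicate b and 5694 to 6150 on the other SP600125 arrays, against 7151 on DMSO replicate b and 8832 to 9057 on the other DMSO arrays. Values without both b arrays, an alternative chosen after seeing the data, are therefore given as well.

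Serum response factor binds a short DNA element called the CArG box and works with partner proteins. Its myocardin-related partners (Myocd, Mrtfa and Mrtfb) are held back by free actin monomers and enter the nucleus when actin is assembled into filaments, and they switch on cytoskeletal and contractile genes. The ternary complex factors (Elk1, Elk3 and Elk4) couple the same factor to MAP kinase signalling and to immediate early genes. In brain and in neural cultures Acta2 and Tagln are known from mural cells of vessels and from myofibroblast-like cells, whereas Vcl, Cnn2 and Tpm1 are made by many non-muscle cells, and serum response factor itself is known in neurons for its part in activity responses and process outgrowth.

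The promoter windows below are shown because they place the CArG box, the element that links Srf to the other genes, in front of genes that fell and of genes that did not. RefSeq windows of 300 bases on build GRCm38.p6, from 250 bases before to 50 bases after the gene start, matched 8 of the 10 genes (not Actg2 or Tagln). Each is written 5′ to 3′ in the direction of the gene, and capitals mark a CArG box or a CArG-like box, in which 1 of the 6 inner bases is G or C. The element reads the same on both strands, so 1 search covered both, and the 2 kinds of box do not overlap each other.
Acta2, chr19:34255324-34255623, minus strand: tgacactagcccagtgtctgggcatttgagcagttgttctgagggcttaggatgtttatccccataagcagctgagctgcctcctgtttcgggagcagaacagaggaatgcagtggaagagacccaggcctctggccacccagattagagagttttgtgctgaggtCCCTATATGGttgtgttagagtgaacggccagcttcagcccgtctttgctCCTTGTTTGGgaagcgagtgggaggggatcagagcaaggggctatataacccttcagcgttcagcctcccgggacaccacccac
Cnn2, chr10:79988350-79988649, plus strand: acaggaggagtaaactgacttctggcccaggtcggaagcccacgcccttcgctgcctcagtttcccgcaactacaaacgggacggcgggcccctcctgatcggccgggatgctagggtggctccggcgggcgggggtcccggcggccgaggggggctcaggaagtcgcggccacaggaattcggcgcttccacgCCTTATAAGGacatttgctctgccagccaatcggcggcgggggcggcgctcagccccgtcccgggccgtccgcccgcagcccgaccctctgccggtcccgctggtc
Vcl, chr14:20929148-20929447, plus strand: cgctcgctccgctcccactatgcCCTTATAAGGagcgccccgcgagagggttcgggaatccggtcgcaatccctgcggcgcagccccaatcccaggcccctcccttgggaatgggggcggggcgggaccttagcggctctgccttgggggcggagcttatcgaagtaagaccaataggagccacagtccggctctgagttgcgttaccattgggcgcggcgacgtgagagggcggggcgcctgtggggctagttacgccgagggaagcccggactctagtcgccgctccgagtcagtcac
Srf, chr17:46556113-46556412, minus strand: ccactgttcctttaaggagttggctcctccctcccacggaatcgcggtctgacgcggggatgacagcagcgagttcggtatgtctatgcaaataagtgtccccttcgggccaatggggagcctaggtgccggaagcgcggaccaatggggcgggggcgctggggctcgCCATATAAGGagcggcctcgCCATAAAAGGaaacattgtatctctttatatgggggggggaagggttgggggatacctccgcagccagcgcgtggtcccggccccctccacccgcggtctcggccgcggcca
Myl9, chr2:156775214-156775513, plus strand: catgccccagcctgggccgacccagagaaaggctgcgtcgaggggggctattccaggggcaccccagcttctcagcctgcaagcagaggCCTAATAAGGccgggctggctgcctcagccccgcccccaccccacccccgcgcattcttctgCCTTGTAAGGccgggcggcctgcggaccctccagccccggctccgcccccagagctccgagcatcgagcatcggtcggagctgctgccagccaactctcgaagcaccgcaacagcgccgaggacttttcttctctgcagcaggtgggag

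A CArG box stood in 4 of the 8 windows, those of Cnn2, Vcl, Srf and Myl9, against 1.63% of all 32851 promoter windows of the same length. The genes were chosen by name around Srf, which is known to drive many of them. A high share of boxes was therefore likely from the choice alone and is no result of these arrays. Srf carried 2 boxes, at 82 and 62 bases before its start, as did 0.0183% of all windows, and Srf is known as a target of its own product. Acta2 had no full box but 2 CArG-like boxes, at 84 and 34 bases before the start, and a CArG-like box was found in 8.50% of all windows. The windows of Tpm1, Tpm2 and Cnn1 held neither letter pattern. Of the genes with a box, Cnn2 and Vcl fell after SP600125 while the tests of Srf and Myl9 did not pass, as given below. Over all tested genes with a window, 32.3% of the 254 with a CArG box fell, against 30.7% of the 15360 without one.

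SP600125 lowered 5 of the 10 genes: Tagln, Acta2, Tpm1, Cnn2 and Vcl. The falls ran from 0.33 to 0.64 on the log2 scale, and for each of the 5 genes every SP600125 array lay below every DMSO array. Only Cnn1 rose, a call that several other scalings did not keep, and Actg2, Myl9, Tpm2 and Srf did not pass. The test was limma with drug batch as a term, two-sided, with a Benjamini-Hochberg adjusted p under 0.05 over all 19938 genes. Over all genes 29.9% fell and 17.0% rose, and the share that fell depended on signal level: 66.3% of genes between 8 and 9 in mean log2 expression fell (the level of Acta2, Tpm1 and Vcl), as did 60.6% between 7 and 8 (Cnn2), 41.1% between 6 and 7 (Myl9 and Srf), 13.8% between 5 and 6 (Tagln) and 3.22% between 4 and 5 (Actg2, Cnn1 and Tpm2). Full separation downward, seen for 5 of 10, was found for 16.4% of all genes (6.65% upward, 0 of 10 in the set). Rises made up 36.2% of the calls over all genes, but 25.0% after quantile normalization, 14.8% after centring on the median of all probe sets and 46.9% after centring on the genes that carry a symbol. In the set the split was 5 falls and 1 rise. Under these scalings, in the same order, it was 6 and 0, 8 and 0, and 5 and 1, and it was 5 and 0 after cyclic loess. Of all genes, 22.5%, 43.1% and 25.3% fell under these scalings in the same order, and 17.7% after cyclic loess. The falls after cyclic loess included Tpm2 but not Vcl. The median change of the 10 genes was −0.24, against −0.03 for all genes tested. Without both b arrays 6 genes of the set fell and 1 rose, where 31.6% of all genes fell and 17.1% rose. The changes were −0.77 for Tagln, −0.67 for Tpm1, −0.64 for Acta2, −0.50 for Cnn2, −0.31 for Vcl, −0.23 for Myl9 and 0.40 for Cnn1, while Srf (−0.14), Tpm2 (−0.08) and Actg2 (−0.02) did not pass. In bulk RNA, fewer cells of a type and less RNA per cell cannot be told apart.

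Among the actins, Acta2, which encodes smooth muscle alpha-actin, was the gene of the set with the lowest adjusted p. Its log2 expression was 8.47, 8.43, 8.58, 8.40 and 8.53 on SP600125 replicates a to e, against 9.07, 8.96, 9.14, 9.18 and 9.17 on DMSO replicates a to e. Every SP600125 array lay below every DMSO array, with a gap of 0.38 between the highest of the first and the lowest of the second, and arrays of 1 group lay close together. The change was −0.62 (SE 0.06, n = 5 per group, limma adjusted p = 3.58e-05), which is 1.54-fold lower. Actg2, the gamma-actin of visceral smooth muscle, had log2 expression of 4.75, 4.95, 4.69, 4.57 and 4.86 after SP600125, against 4.63, 4.70, 4.80, 4.74 and 4.77 after DMSO. Its groups overlapped, and the difference of 0.04 (SE 0.07, 95% interval −0.12 to 0.20) did not pass the test (limma adjusted p = 0.701) and turned negative under other scalings. Actin genes are close copies of each other in their coding part, so signal from another actin in either probe set is possible and was not tested.

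**Figure D1:**
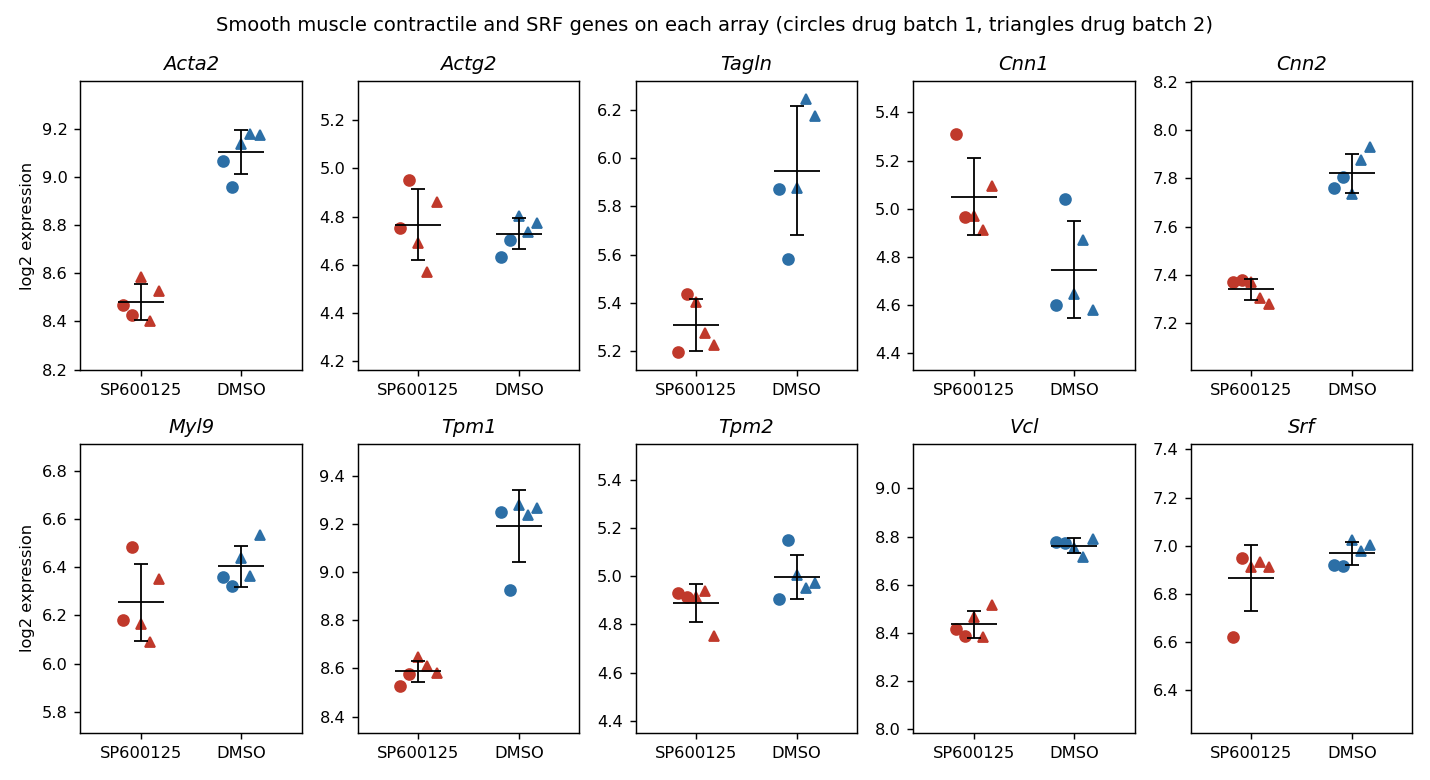
Log2 expression of the 10 genes (y axes, each spanning 1.2 log2 units) on the SP600125 and DMSO arrays (x axis). Points are single arrays (circles drug batch 1, triangles drug batch 2), and bars are the mean ± SD of 5 arrays. The groups do not overlap for Acta2, Tagln, Cnn2, Tpm1 and Vcl, and they overlap for the other 5 genes.

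Of the actin-binding proteins, Tagln (transgelin, or SM22-alpha), an early marker of smooth muscle differentiation, fell by about as much as Acta2 did. It read 5.20, 5.44, 5.40, 5.27 and 5.22 on SP600125 replicates a to e, against 5.87, 5.58, 5.87, 6.24 and 6.17 on DMSO replicates a to e. The groups did not overlap, but DMSO arrays spread more widely (SD 0.27, against 0.11 after SP600125), and DMSO replicate b came within 0.14 of the highest SP600125 array. Tagln fell by 0.64 (SE 0.10, limma adjusted p = 0.000373), or 1.56-fold. Its mean after SP600125, 5.31, lay inside the signal range of 1027 olfactory receptor genes, which are taken as silent here. That range, from the 5 to the 95 percentile, was 2.78 to 5.42, and the mean of Tagln over all arrays (5.63) lay above it.

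Calponins bind actin filaments and restrain myosin. Cnn2, the calponin of non-muscle and smooth muscle cells that steadies actin filaments, read 7.37, 7.38, 7.37, 7.30 and 7.28 after SP600125, against 7.76, 7.80, 7.74, 7.88 and 7.93 after DMSO. Its groups were 0.36 apart at their nearest arrays, and it fell by 0.48 (SE 0.06, limma adjusted p = 0.000127). Cnn1, the calponin of differentiated smooth muscle, read 5.31, 4.97, 4.97, 4.91 and 5.09 after SP600125, against 4.60, 5.04, 4.65, 4.87 and 4.58 after DMSO. DMSO replicate b was higher than 3 of the SP600125 arrays, so the groups overlapped. Cnn1 was the only gene of the set to rise (0.30, SE 0.09, limma adjusted p = 0.0176), and that call did not hold after quantile normalization (0.15, limma adjusted p = 0.185), cyclic loess (0.15, limma adjusted p = 0.176) or centring on the median of all probe sets (0.20, limma adjusted p = 0.0579), nor without SP600125 replicate a (0.25, limma adjusted p = 0.0571) or without DMSO replicate a (0.23, limma adjusted p = 0.0571). Cnn1 lay in the signal range of 1027 olfactory receptor genes, which are taken as silent here, and the median of those genes was itself higher after SP600125, at 3.86 to 3.95 on SP600125 arrays and 3.58 to 3.75 on DMSO arrays.

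The tropomyosins wind along actin filaments and set which myosins and regulators can bind. Tpm1, transcribed in many cell types as several isoforms that 1 probe set cannot separate, read 8.53, 8.57, 8.65, 8.61 and 8.58 after SP600125, against 9.25, 8.93, 9.28, 9.24 and 9.26 after DMSO. All SP600125 arrays lay below all DMSO arrays, and DMSO replicate b was again the DMSO array nearest to them. Tpm1 fell by 0.60 (SE 0.07, limma adjusted p = 6.90e-05), or 1.52-fold. Tpm2 (beta-tropomyosin) read from 4.75 to 4.94 after SP600125 and from 4.91 to 5.15 after DMSO, with a change of −0.11 (SE 0.06, 95% interval −0.24 to 0.03, limma adjusted p = 0.182). Tpm2 passed after cyclic loess (−0.25, limma adjusted p = 0.00784), quantile normalization (−0.26, limma adjusted p = 0.00685) and centring on the median of all probe sets (−0.21, limma adjusted p = 0.0142). Myl9, the regulatory light chain whose phosphorylation starts smooth muscle contraction, read 6.18, 6.48, 6.17, 6.09 and 6.35 after SP600125, against 6.36, 6.32, 6.44, 6.36 and 6.54 after DMSO. Its change of −0.15 (SE 0.08, 95% interval −0.32 to 0.02) did not pass (limma adjusted p = 0.134), and SP600125 replicate b was higher than 4 of the 5 DMSO arrays. Myl9 passed without that array (−0.22, limma adjusted p = 0.0202), after centring on the median of all probe sets (−0.25, limma adjusted p = 0.0196), in drug batch 2 alone (−0.24, limma adjusted p = 0.0474) and with array weights (−0.20, limma adjusted p = 0.0323).

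Vcl encodes vinculin, which ties actin filaments to integrin and cadherin adhesions. It read 8.42, 8.39, 8.47, 8.38 and 8.52 on SP600125 replicates a to e, against 8.78, 8.77, 8.75, 8.71 and 8.79 on DMSO replicates a to e. The groups were separate and narrow, with an SD of 0.06 after SP600125 and 0.03 after DMSO. Vcl fell by 0.33 (SE 0.06, limma adjusted p = 0.000651), or 1.25-fold, but the change was −0.15 after cyclic loess and then missed the threshold (limma adjusted p = 0.0546).

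Srf itself did not pass the test. It read 6.62, 6.95, 6.91, 6.93 and 6.91 after SP600125, against 6.92, 6.92, 7.02, 6.98 and 7.00 after DMSO. SP600125 replicate a lay 0.29 below the next array of its group, while the other 4 SP600125 arrays were in or near the DMSO range. The change was −0.10 (SE 0.07, 95% interval −0.24 to 0.04, limma adjusted p = 0.206), it was 0.03 after cyclic loess, and it passed at −0.20 after centring on the median of all probe sets (limma adjusted p = 0.0252).

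**Figure D2:**
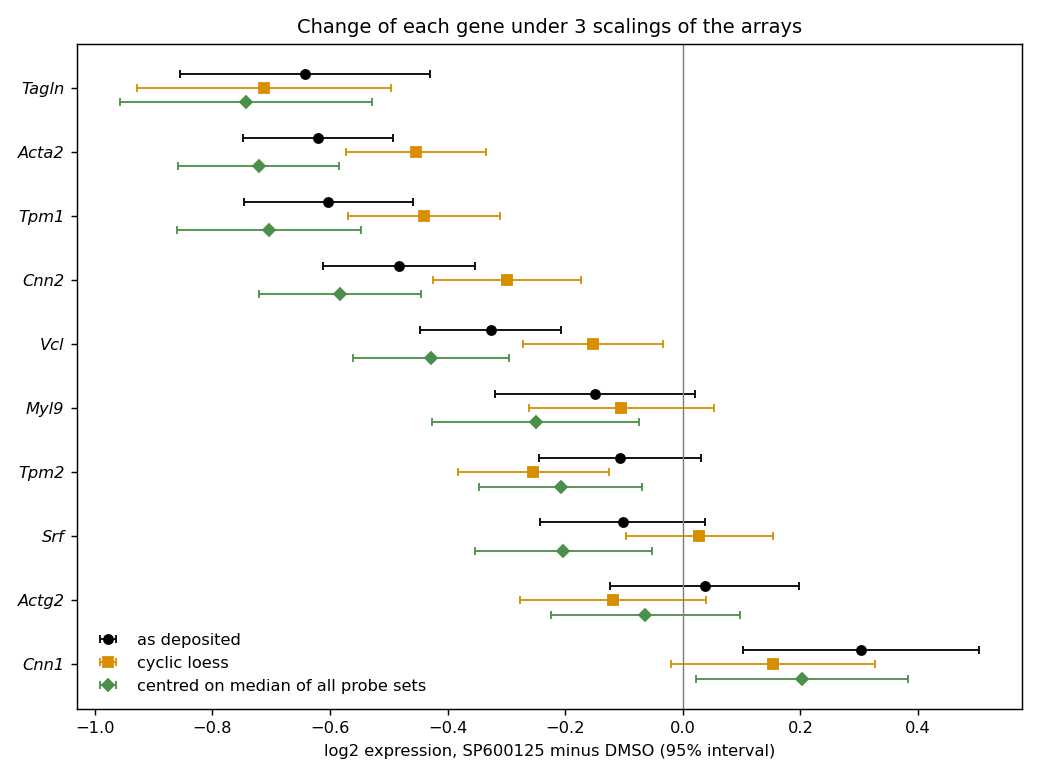
Change of each gene on the log2 scale, SP600125 minus DMSO (x axis), with its 95% interval from limma, for the values as deposited (circles), after cyclic loess (squares) and with all probe sets of an array centred on their median (diamonds). Tagln, Acta2, Tpm1 and Cnn2 lie below 0 throughout and pass in all 3, Vcl does not pass after cyclic loess, Cnn1 passes only as deposited, and Actg2 and Srf change sign between scalings.

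The change varied with signal level over the whole array, and the genes of the set differ in level. The SD over all genes was 1.63 to 1.71 on SP600125 arrays and 1.76 to 1.84 on DMSO arrays, and array medians were 5.63 to 5.71 on SP600125 arrays and 5.51 to 5.61 on DMSO arrays. Genes between 8 and 9 in mean log2 expression, where Acta2, Tpm1 and Vcl lay, had a median change of −0.24, and genes between 4 and 5, where Actg2, Cnn1 and Tpm2 lay, had a median change of 0.15. Of the 1719 genes in the upper of these bins, 2.62% changed further downward than Acta2 and 2.91% than Tpm1, but 30.4% than Vcl. Tagln lay between 5 and 6, a bin of 3898 genes with a median change of 0.08, and 0.231% of them were lower than Tagln. Cnn2 had 7.34% of its 3363 neighbours in level below it. The rise of Cnn1 was exceeded by 15.8% of the 3479 genes in its bin, and Tpm2, at −0.11, had 7.21% of the same genes below it. Myl9 and Srf sat near the middle of their bin, whose median was −0.14, with 48.3% and 57.4% of 3833 genes lower.

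**Figure D3:**
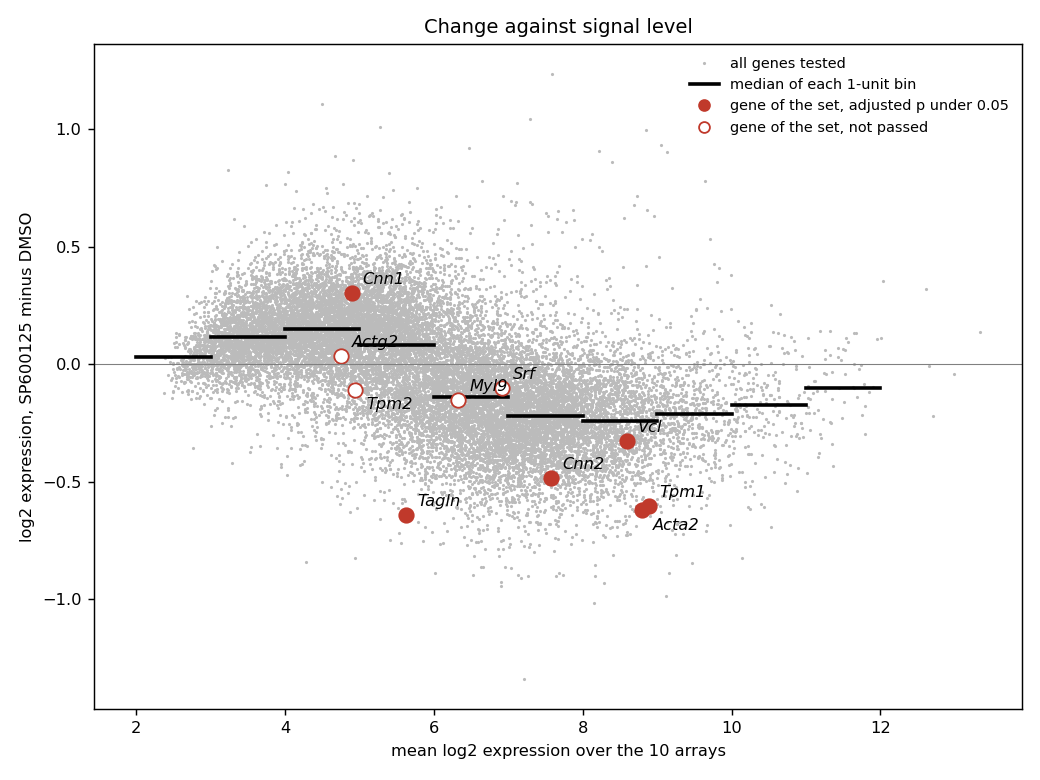
Change on the log2 scale, SP600125 minus DMSO (y axis), against mean log2 expression over the 10 arrays (x axis) for all 19938 genes (grey), with the median of each bin of 1 log2 unit as a black bar and the 10 genes as circles (filled, adjusted p under 0.05). Tagln, Acta2 and Tpm1 lie far below the median of their bins, Vcl, Myl9 and Srf lie near it, and Cnn1, which lost its call under other scalings, lies above it.

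The response was similar in direction in both drug batches for the genes that fell. In drug batch 1 and drug batch 2 the change was −0.56 and −0.66 for Acta2, −0.41 and −0.80 for Tagln, −0.54 and −0.65 for Tpm1, −0.41 and −0.53 for Cnn2, and −0.37 and −0.30 for Vcl. For these genes all SP600125 arrays lay below all DMSO arrays, so the same direction and full separation within each batch had to follow. Only the sizes of the changes add to that. For Cnn1 the values were 0.32 and 0.29, for Myl9 −0.01 and −0.24, and for Actg2 0.19 and −0.06. The limma interaction of treatment and batch called 0 of the 10 genes, as it called 0% of all genes, and at an unadjusted p under 0.05 it held 1 of the 10, Tagln, and 9.29% of all genes. The interaction of Tagln had a limma adjusted p of 0.536. Between the batches themselves limma called 0 of the 10 genes, with 0 at an unadjusted p under 0.05, against 0.722% called over all genes.

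The genes around the set were read from lists of related genes. Of 21 other smooth muscle contractile genes measured, 4 rose, 6 fell and 11 did not pass, with a median change of −0.03, which is also the median over all genes tested. The median level of these 21 genes was 5.54, and of all genes between 5 and 6, 27.6% rose and 13.8% fell. Kcnmb1, the beta subunit of the smooth muscle BK channel, rose by 0.44 (SE 0.08), and Mustn1 rose by 0.36 (SE 0.08), but both (5.32 and 5.40), like Mylk (5.33), lay in the signal range of the olfactory receptor genes. The LIM domain protein Csrp1 fell by 0.39 (SE 0.07) and Pdlim7, another LIM protein of actin cables, by 0.35 (SE 0.06). Myh11 (smooth muscle myosin heavy chain) did not pass, with a change of 0.15 (limma adjusted p = 0.118). Neither did Mylk (myosin light chain kinase, 0.06, limma adjusted p = 0.543) or Cald1 (caldesmon, −0.07, limma adjusted p = 0.294). Of 20 cardiac and skeletal muscle genes, 8 rose, 1 fell and 11 did not pass, with a median change of 0.13, and the count of rises was 4 after cyclic loess and 2 after quantile normalization. Of all genes, 9.44% and 7.51% rose under these scalings. The median level of this list was 5.36, and 27.6% of all genes between 5 and 6 rose. The factor Mef2c fell by 0.41 (SE 0.08), while Myl4 (0.33, SE 0.10), Gata4 (0.26, SE 0.10) and Nkx2-5 (0.26, SE 0.06) rose. Myl4 (mean 5.32) lay in the olfactory receptor range too and did not pass after cyclic loess (0.21, limma adjusted p = 0.107). Gata4 changed by −0.06 in drug batch 1 and by 0.48 in drug batch 2 (limma interaction, adjusted p = 0.478). The striated muscle actins Actc1 (−0.05, limma adjusted p = 0.536) and Acta1 (−0.04, limma adjusted p = 0.697) did not pass.

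Of 18 cofactors and regulators of Srf measured, 1 rose, 8 fell and 9 did not pass, with a median of −0.16, at a median level of 6.95, where 41.1% of all genes between 6 and 7 fell. Mrtfb fell by 0.47 (SE 0.07, limma adjusted p = 0.000314) and Mrtfa by 0.44 (SE 0.07, limma adjusted p = 0.000454), and after cyclic loess both still passed (−0.33 and −0.37). Mrtfb has 3 probe sets. The other probe sets, at mean levels of 6.54 and 6.57, changed by −0.24 and 0.07 (limma adjusted p = 0.0283 and 0.467 over all probe sets). Whether Mrtfb fell, and by how much, thus depended on the probe set. Diaph1, a formin that builds actin filaments, fell by 0.30 (SE 0.09), and Mamstr, a myocardin-type partner of MEF2 factors, rose by 0.29 (SE 0.08). Myocd (0.12, limma adjusted p = 0.204), Elk1 (−0.14, limma adjusted p = 0.113), Elk3 (−0.13, limma adjusted p = 0.120) and Elk4 (−0.16, limma adjusted p = 0.0619) did not pass. In this list 1 gene rose and 3 fell after cyclic loess, where 9.44% of all genes rose and 17.7% fell.

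Known targets of Srf were read in 2 lists. Of 27 other genes of the actin cytoskeleton, 22 fell, 1 rose and 4 did not pass, with a median change of −0.25, and all SP600125 arrays lay below all DMSO arrays for 18 of them. Of all genes tested, 16.4% were separated downward in this way. The median level of this list was 7.75, and 60.6% of all genes between 7 and 8 fell, with a median change of −0.22. Tagln2, the broadly made relative of Tagln, fell by 0.77 (SE 0.07), Tuft1 by 0.58 (SE 0.08), and the non-muscle myosin heavy chains Myh10 and Myh9 by 0.48 (SE 0.06) and 0.45 (SE 0.06). A dimmer second probe set of Myh9 went the other way (0.43). Cytoplasmic beta-actin, Actb, fell by 0.22 (SE 0.06), Tpm4 by 0.24 (SE 0.05), Tpm3 by 0.25 (SE 0.05) and Cnn3, the calponin common in neurons, by 0.16 (SE 0.06). Tpm3 has 4 probe sets and the other probe sets of it did not fall (0.05 to 0.22), and Tpm4 and Cnn3 did not pass after cyclic loess. Actg1, the other cytoplasmic actin, was not analysed here. The count of falls in this list was 12 after cyclic loess and 17 after quantile normalization, where 17.7% and 22.5% of all genes fell. Of 20 immediate early targets, Srf itself among them, 3 rose, 3 fell and 14 did not pass, with a median of −0.05. The median level of these 20 genes was 6.57, and of all genes between 6 and 7, 7.23% rose and 41.1% fell. After cyclic loess 5 of the 20 rose and 3 fell (median 0.07), where 9.44% of all genes rose and 17.7% fell. After quantile normalization 4 rose and 3 fell (median 0.02), against 7.51% and 22.5% of all genes. Centring on the median of all probe sets gave 2 rises and 8 falls (median −0.15), against 7.52% and 43.1% of all genes. The nuclear receptor Nr4a1 rose by 0.78 (SE 0.09) and Klf4 by 0.28 (SE 0.07), while Ccn2 (connective tissue growth factor) fell by 0.61 (SE 0.07) and Ier2 by 0.48 (SE 0.07). Egr1 (−0.08, limma adjusted p = 0.245) and Fos (0.14, limma adjusted p = 0.319) did not pass.

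**Figure D4:**
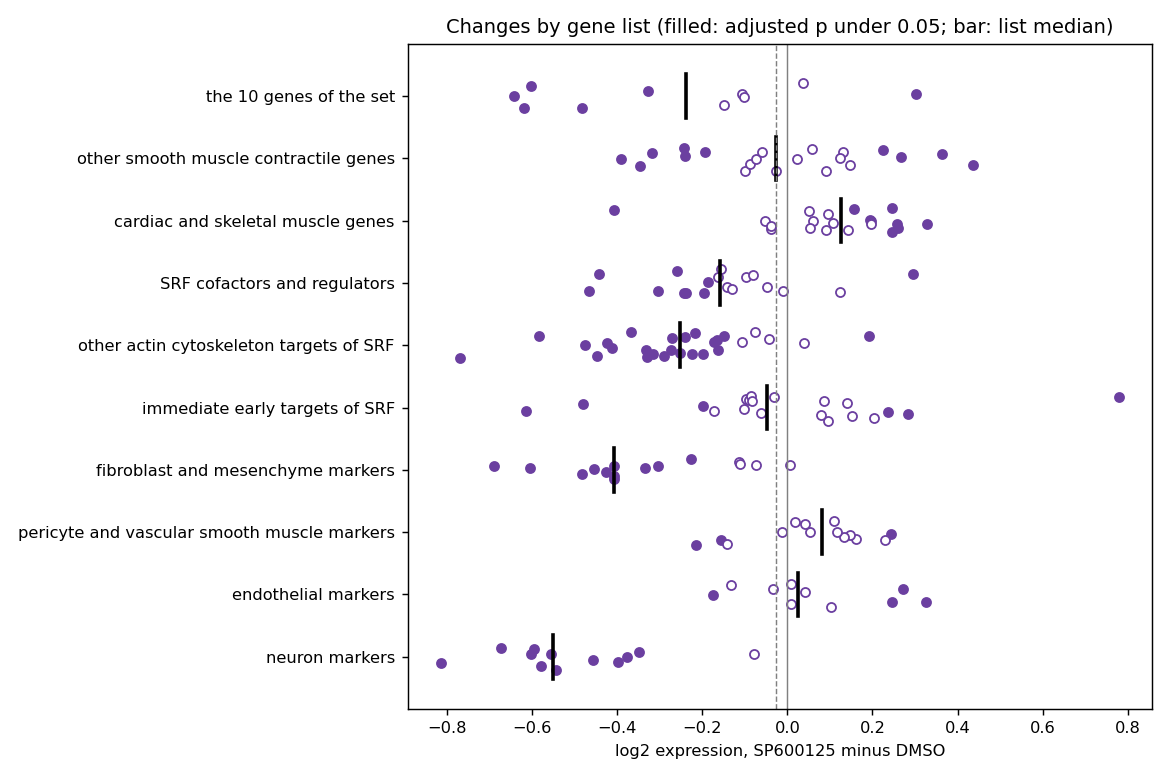
Change on the log2 scale, SP600125 minus DMSO (x axis), of each measured gene (points, filled where the adjusted p was under 0.05) in the set, in 5 related lists and in 4 lists of cell type markers (y axis), with a bar at each list median and a dashed line at the median of all genes. The points of the actin cytoskeleton, fibroblast and neuron lists lie mostly below 0, and those of the other smooth muscle list lie on both sides.

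Markers of the cells that could hold these transcripts were read beside them. Neuronal markers were bright, with Tubb3 (neuronal beta-tubulin) at 9.33 after SP600125 and 9.87 after DMSO. So were fibroblast and mesenchyme markers, with Col1a1 (the main chain of type I collagen) at 10.2 after SP600125 and 10.9 after DMSO. Of 15 fibroblast and mesenchyme markers 11 fell and none rose (median −0.41), at a median level of 8.57, where 66.3% of all genes between 8 and 9 fell. The falls included Col1a1 by 0.69 (SE 0.07), Col1a2 by 0.61 (SE 0.06), Fn1 by 0.48 (SE 0.06) and Col5a1 by 0.45 (SE 0.06). Their summed linear signal ran from 8455 to 9201 on SP600125 arrays and from 11350 to 11824 on DMSO arrays, and their part in the falls of Acta2 and Tagln was not tested. Of 14 pericyte and vascular smooth muscle markers, 1 rose (Abcc9, 0.24, SE 0.09), 2 fell (Tbx18 by 0.22, SE 0.06, and Notch3 by 0.16, SE 0.06) and 11 did not pass (median 0.08). The median level of the 14 markers was 5.60, and of all genes between 5 and 6, 27.6% rose and 13.8% fell. Abcc9 (0.09) and Notch3 (−0.0040) lost their calls after cyclic loess, and both also did after quantile normalization, which left 0 rises and 1 fall under either. The summed signal of the 14 markers overlapped between the groups (881 to 950 on SP600125 arrays and 898 to 949 on DMSO arrays). Rgs5 (3.71), Des (5.01) and Myh11 (5.25) had mean log2 signals inside the range from the 5 to the 95 percentile of the 1027 olfactory receptor genes (2.78 to 5.42), and Pdgfrb (7.49, change −0.14, limma adjusted p = 0.0627) did not. Actg2, Cnn1 and Tpm2 lay in that range as well.

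The other cell types were counted in the same way. Of 12 neuron markers 11 fell and 1 did not pass (median −0.55), at a median level of 9.06, where 64.4% of all genes between 9 and 10 fell. The falls included Tubb3 (by 0.54, SE 0.13), the RNA-binding proteins Elavl4 (by 0.81, SE 0.12) and Elavl3 (by 0.59, SE 0.12), the vesicle protein Syp (by 0.67, SE 0.13) and the neurofilament Nefl (by 0.60, SE 0.15). The median of the 12 neuron markers was −0.27 for drug batch 1 alone and −0.72 for drug batch 2 alone. Without both b arrays, whose summed signals are given above, all 12 fell (median −0.76). Of 9 neural progenitor markers 2 fell, the intermediate filament genes Nes (by 1.34, SE 0.06) and Vim (by 0.16, SE 0.05). Progenitor markers had a median level of 7.36, and 60.6% of all genes between 7 and 8 fell. Of 10 astrocyte markers 4 fell, led by Fgfr3 (by 0.74), Gfap (by 0.36) and Aldh1l1 (by 0.21), and 2 rose, including Glul (0.21). After cyclic loess the split turned to 4 rises and 2 falls, and after quantile normalization to 3 and 2. Astrocyte markers had a median level of 8.03, and 66.3% of all genes between 8 and 9 fell. Of 7 oligodendrocyte lineage markers 4 fell, namely Cnp (by 0.47), Gpr17 (by 0.47), Olig1 (by 0.35) and Mbp (by 0.18). Oligodendrocyte lineage markers had a median level of 6.58, and 41.1% of all genes between 6 and 7 fell. Of 10 endothelial markers Tie1 (0.33), Esam (0.27) and Cldn5 (0.25) rose and Kdr (−0.18) fell, but after cyclic loess or quantile normalization 1 rose and 2 fell. Endothelial markers had a median level of 5.33, and of all genes between 5 and 6, 27.6% rose and 13.8% fell. Of 10 microglia markers 6 rose, led by Cx3cr1 (0.44), Trem2 (0.31), C1qb (0.24) and Tyrobp (0.23), at a median level of 4.50, where 36.2% of all genes between 4 and 5 rose. Of 7 pluripotent markers Dppa5a (0.72), Tdgf1 (0.46) and Nanog (0.37) rose, at a median level of 5.01, where 27.6% of all genes between 5 and 6 rose. The rest of each list did not pass. After cyclic loess 8 neuron markers and 9 fibroblast and mesenchyme markers fell, and 2 microglia markers rose, where 17.7% of all genes fell and 9.44% rose.

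Outside the set, the genes whose level followed Acta2 most closely over the 10 arrays, by Pearson correlation, were Polr1a, a subunit of RNA polymerase I (0.991), Usp53 (0.990), Col12a1, a fibril-associated collagen (0.989), Hspa13 (0.988) and Mlec (0.988). These 5 genes fell by 0.57, 0.32, 0.90, 0.45 and 0.48 in that order, and since the 10 arrays hold both treatments the correlation contains the treatment difference. The genes outside the set most like Srf were Mapk1ip1 (0.945), Tmem230 (0.936), St7 (0.936), Pigs (0.933) and Mvb12b (0.931), with changes between −0.21 and −0.08.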

How the data were processed

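The authors deposited log2 expression values for 35556 probe sets on each of 10 arrays, and their range (1.90 to 13.8) is what the log2 scale was read from. The submitters' processing notes name oligo 1.14.0. Background correction, normalization and summarization were not given in the sources used here. Log2 array values compress changes of dim probe sets, and the number of arrays limits precision.

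Groups, replicates and drug batch came from the labels. Probe sets with 1 symbol in the platform annotation (21789) were kept, and the one with the highest mean stood for each gene. List symbols missing there were sought among RefSeq synonyms. The fit was limma 3.58.1 in R 4.3.3 (lmFit, eBayes, terms for treatment and drug batch, 7 residual degrees of freedom), checked on simulated data. Changes are SP600125 minus DMSO with moderated SE. From each of the other 14 lists, up to 4 of the largest changes past the threshold were named, and some genes always. The members and lists were chosen with earlier results of these data known, so no count over them is independent evidence. Scaling, covariates, arrays left out, filters and variance models were varied.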

Additional observations from a re-analysis of the deposited data

Results flagged for a closer look

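Within groups of 5 arrays, a single array stood apart from the others for 3 of the 20 combinations of gene and group, by a Dixon gap test at its 95% critical value, and chance would flag about 1 in 20 groups. Srf read 6.62 on SP600125 replicate a, with the next array of its group at 6.91. Tpm2 read 4.75 on SP600125 replicate e, with the next at 4.91. Tpm1 read 8.93 on DMSO replicate b, with the next DMSO array at 9.24, and the fall of Tpm1 was 0.66 without that array. DMSO replicate b was the lowest DMSO array for 3 of the 5 genes that fell (Acta2, Tagln and Tpm1). No gene of the set had a response that differed between drug batches after adjustment.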

How the results depend on the processing

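Tagln, Acta2, Tpm1 and Cnn2 kept the fall under 23 of 24 alternatives each, all but drug batch 1 alone, where the fit had 4 arrays and called 1 of all 19938 genes. In that setting 0 genes of the set fell and 0 rose, with changes of −0.41, −0.56, −0.54 and −0.41. With 8 falls, centring on the median of all probe sets gave the highest count, in a setting where 43.1% of all genes fell. It shifted the change of every gene by the same −0.10. The added falls of Myl9, Tpm2 and Srf thus differed in size from the deposited values by that shift only. The count of rises was 0 after quantile normalization, cyclic loess and that centring, and with genes under a mean log2 signal of 5 left out, since Cnn1 was then not tested. Leaving out each array in turn gave between 5 and 6 falls and between 0 and 1 rises. The count of rises was 0 without SP600125 replicate a or DMSO replicate a. Over all 19938 genes these fits gave 5106 to 6355 falls and 2392 to 3475 rises, against 5962 and 3389 with all arrays. Where leaving out an array left 1 array of a group in drug batch 1, that array was assumed to vary like the others. Without both b arrays, chosen after seeing the data, 6 genes fell and 1 rose, and 5 and 1 with cyclic loess as well. In the last setting Tpm2 passed (−0.23) and Vcl did not (−0.11), and 20.5% of all genes fell and 11.7% rose. Actg2, which never passed, turned negative after quantile normalization (−0.12), cyclic loess (−0.12), centring on all probe sets (−0.0639), in drug batch 2 alone (−0.0628), with array weights (−0.0043), and without SP600125 replicate b (−0.0168), without both b arrays (−0.0170) and with cyclic loess as well (−0.18); leaving out 1 array in turn gave −0.0168 to 0.0878. Srf turned positive after cyclic loess (0.0281) and with both b arrays also left out (0.0182). The causes were not tested. With the replicate letter as a replicate block, 5 genes fell and 1 rose, and no call changed; over all genes the block gave 5298 falls and 2954 rises, against 5962 and 3389 without it. Same-letter arrays deviated from their group means with correlations of −0.21 to 0.10, and 1 of 5 letters, e, correlated best with its own letter, so letters were not taken as pairs. Over all genes, rises numbered 1497 after quantile normalization, 1882 after cyclic loess and 1500 after centring on all probe sets, and falls 3537 after cyclic loess. With genes under a mean log2 signal of 5 left out, rises numbered 1613.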
